A study of Rattus norvegicus with 24 samples.

Results

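Adrb1 encodes the beta 1 adrenergic receptor, and its messenger RNA was followed in left ventricles from male Wistar rats after high thoracic spinal cord injury (SCI). It is 1 gene of 23098 in the deposited count table, taken by its Ensembl ID, ENSRNOG00000017002, which stands on 1 line. The table carries no symbols. The gene table used for names pairs none of the 23098 IDs with a symbol, so the pairing of this ID with Adrb1 was taken as given. The 3 injured groups had a complete transection of the cord at a high thoracic level with collection at 1 day, 3 days or 12 weeks. The sham group had the dura opened at a high thoracic level with the cord left whole, and was collected 7 days after surgery. Each group has 6 libraries, made from flash-frozen free wall at mid-ventricular level. No allele, drug or transgene is named in the labels, and the age of the rats is not given in the sources used here. The labels do not state that the libraries of a group are from separate rats, so a p-value here reflects library-to-library spread, which may be partly technical.

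The beta 1 receptor is the main beta adrenergic receptor of the cardiac myocyte. Noradrenaline from sympathetic nerve endings and circulating adrenaline bind it, and it acts through the stimulatory G protein Gs and adenylyl cyclase to raise cyclic AMP. Protein kinase A then phosphorylates calcium-handling and contractile proteins, which raises heart rate, force and the speed of relaxation. Sustained stimulation is known to lower receptor number and messenger RNA, and loss of sympathetic supply is known in some settings to raise receptor number. A high thoracic transection cuts the descending pathways that drive the cardiac sympathetic nerves. The question put to the data was therefore whether the level of this transcript differed from sham at 1 day, 3 days or 12 weeks. The counts speak of transcript only, not of receptor protein or its position in the membrane.

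The window around the start of the gene is shown because the count table holds no sequence. It was found by the symbol Adrb1, so it does not show that the counted ID is this gene. It covers 250 bases before to 50 bases after the start in RefSeq, build GRCr8, chr1:265776853-265777152, plus strand. The counts were made on another build, mRatBN7.2. Capitals mark the CCAAT box, here as its reverse complement ATTGG, and the core of the cyclic AMP response element, TGACG.
Adrb1: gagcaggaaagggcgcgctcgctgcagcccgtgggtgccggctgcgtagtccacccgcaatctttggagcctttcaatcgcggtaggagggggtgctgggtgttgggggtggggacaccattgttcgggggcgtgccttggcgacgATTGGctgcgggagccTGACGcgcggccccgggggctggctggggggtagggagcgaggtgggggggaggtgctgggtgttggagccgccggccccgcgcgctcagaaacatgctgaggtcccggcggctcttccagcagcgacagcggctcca
The window is 70.7% G and C, against a median of 51.7% over the 33469 windows of the same length, and it holds 28 CG steps against a median of 7. The CCAAT box reads on the minus strand, and the leftmost base of its ATTGG lies at position -104 from the start. Of all windows, 37.5% hold such a box on either strand. The core begins at position -88 on the plus strand, and 21.2% of all windows hold one. The full element TGACGTCA, the GC box GGGCGG and the TATA box TATAAA were also searched on both strands and have no match in this window; 1.83%, 33.1% and 14.2% of all windows hold them. These are matches of letters and say nothing of binding in these hearts.

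Adrb1 was counted in all 24 libraries, with 358 to 1860 counts each. Its level is given as CPM, the count per 1000000 counts of the library, scaled by the TMM factors that edgeR uses to make libraries comparable. At 1 day after transection it stood at 26.4, 30.1, 24.3, 29.8, 29.3 and 25.0 CPM in replicates 1 to 6. At 3 days it stood at 21.2, 20.1, 26.0, 22.4, 22.4 and 21.1 CPM. At 12 weeks the replicates had 24.4, 22.5, 36.7, 27.8, 25.4 and 26.8 CPM. The sham replicates had 21.2, 24.9, 28.9, 33.4, 21.3 and 21.8 CPM. Of the 3 day libraries 5 lie between 20.1 and 22.4 CPM, a range that sham replicates 1, 5 and 6 share, and replicate 3 lies above it. The highest of all 24 libraries is 12 week replicate 3. Sham lies inside the range of the injured libraries, 20.1 to 36.7 CPM, with 3 libraries between 21.2 and 21.8 CPM and the other 3 between 24.9 and 33.4 CPM.

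**Figure D1:**
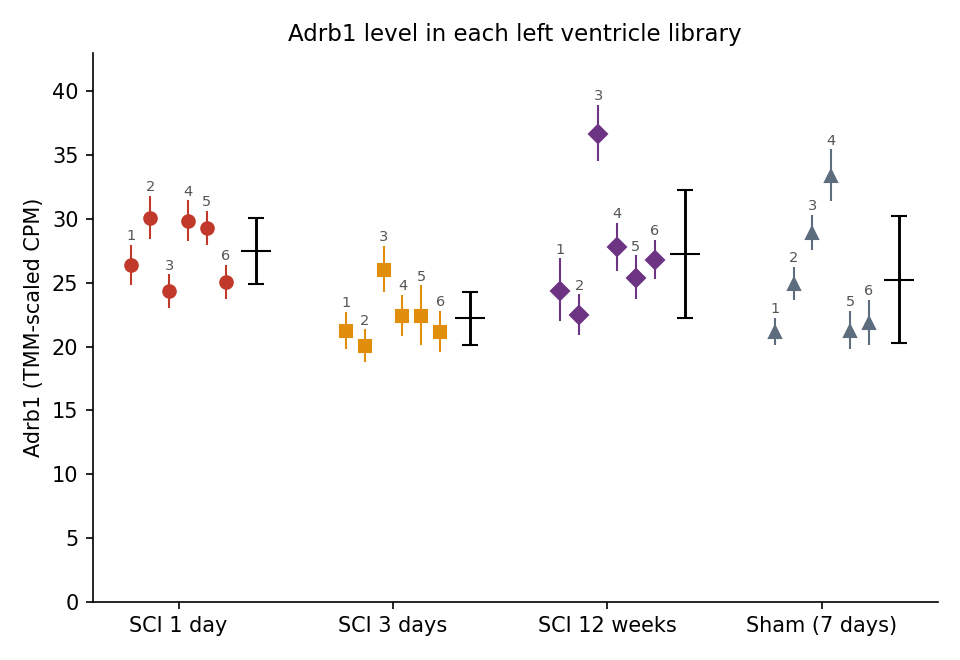
Adrb1 level in CPM (vertical axis) in each library, by group. Points are libraries with their replicate numbers and exact 95% Poisson intervals for counting error, and the black bar beside each group is the mean ± SD (n = 6). The 3 day libraries lie between 20.1 and 26.0 CPM, and every group overlaps every other.

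The mean level was 27.5 ± 2.56 CPM at 1 day, 22.2 ± 2.07 CPM at 3 days and 27.3 ± 4.98 CPM at 12 weeks, against 25.2 ± 4.99 CPM in sham (SD, n = 6 each). From high to low the order is 1 day, 12 weeks, sham and 3 days. The coefficient of variation between libraries was 9.29% at 1 day, 9.32% at 3 days and 18.3% at 12 weeks, against 19.7% in sham. The highest library exceeded the lowest 1.24-fold at 1 day, 1.30-fold at 3 days and 1.63-fold at 12 weeks, and 1.58-fold in sham. The biological coefficient of variation that edgeR fitted for Adrb1 was 0.140, beside 0.136 for the trend at its level and 0.169 in common for all genes.

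Against sham, Adrb1 was not called at any of the 3 times. Sham was collected at 7 days only, so no injured group has a sham group of its own time. In all 3 comparisons the injury cannot be told apart from the time since surgery. A call means an adjusted p under 0.05 in edgeR's quasi-likelihood test, with Benjamini-Hochberg adjustment over the 15065 genes tested. By that rule 24% of the tested genes were called at 1 day, 17.5% at 3 days and 22.1% at 12 weeks. Adrb1 had 0 calls in these 3 comparisons, also 0 with DESeq2 and with limma-voom, and 0 with an edgeR p under 0.05 before adjustment. The ventricle is a mixture of cells, and in such bulk tissue fewer cells of a type and less RNA per cell cannot be told apart.

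At 1 day after transection Adrb1 was 1.09-fold the sham level, which is 0.12 on the log2 scale (SE 0.113), with an adjusted p of 0.459 by edgeR. The 95% interval of the change runs from -7.36% to 28.0%. In this comparison 4 of the 6 libraries at 1 day lay above the sham mean, and none lay outside the sham range. Fold changes at least as large in size were seen for 64.3% of the tested genes.

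At 3 days the level was 0.879-fold that of sham, or -0.19 on the log2 scale (SE 0.114), with an adjusted p of 0.283 by edgeR. The interval of the change runs from -25.3% to 3.51%. Of the 6 libraries at 3 days, 5 lay below the sham mean and 2 below every sham library. Both groups come from 1 run of library numbers in the labels, 57 to 68, and a fit of these 12 libraries alone gave -0.18 (edgeR adjusted p = 0.277).

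At 12 weeks the level was 1.08-fold that of sham, or 0.11 on the log2 scale (SE 0.114), with an adjusted p of 0.524 by edgeR. The interval of the change runs from -8.21% to 27.1%. Here 4 of the 6 libraries lay above the sham mean and 1, replicate 3, above every sham library. Without 12 week replicate 3 the log2 fold change was 0.0074 (edgeR adjusted p = 0.972). All 3 values also moved without sham replicate 4, the highest sham library: without it the log2 fold changes were 0.22 at 1 day, -0.09 at 3 days and 0.21 at 12 weeks, with edgeR adjusted p-values of 0.152, 0.6251 and 0.192.

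**Figure D2:**
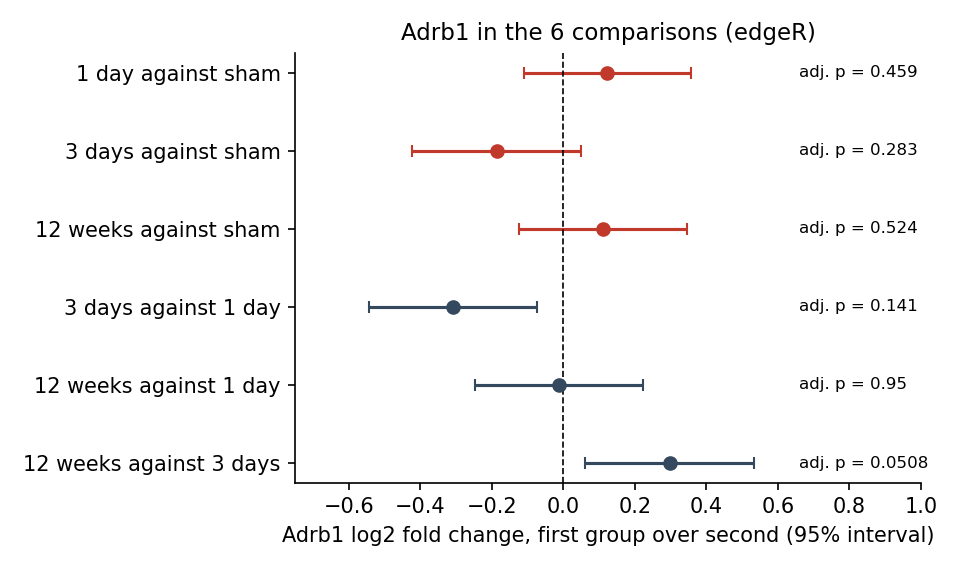
Adrb1 log2 fold change (horizontal axis) in each comparison, first named group over second, with its 95% interval from edgeR and its p adjusted over 15065 genes. The intervals of the 3 comparisons with sham (red) include 0, and those of 3 days against 1 day and 12 weeks against 3 days lie to either side of it.

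Between the injured groups, Adrb1 was lowest at 3 days. It averaged 22.2 CPM at 3 days and 27.5 CPM at 1 day, a 0.807-fold level with a log2 fold change of -0.31 (SE 0.114) and an interval of -31.4% to -4.99%. In 5 of 6 libraries at 3 days the level was below every library at 1 day, and replicate 3 overlapped that group. The edgeR p was 0.0121 before adjustment and 0.141 after it, so Adrb1 was not called in a comparison where 2.74% of the tested genes were. The gene ranked 1297 by p among the 15065.

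The same difference was also tested on this 1 gene, by a two-sided exact permutation test of log2 CPM over all arrangements of the 12 libraries. The difference was -0.31, with an exact p of 0.00649 and an adjusted p of 0.039 over the 6 comparisons. The smallest p the test can give is 0.00216. This second result was past the threshold and the first was not. The first is adjusted over every tested gene and takes its spread from all 24 libraries. The second uses the 12 libraries alone and is adjusted over 6 comparisons. An edgeR fit of those 12 libraries alone, adjusted over its tested genes, gave an adjusted p of 0.0559. What part each difference plays was not tested. Leaving out 1 day replicate 1, 2, 4 or 5, or any 3 day replicate other than replicate 3, gave adjusted exact permutation p-values of 0.0519 to 0.0909. Each of these had fewer arrangements, and the difference was between -0.32 and -0.28 in these cases.

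At 12 weeks Adrb1 averaged 27.3 CPM, against 22.2 CPM at 3 days, a 1.23-fold level with a log2 fold change of 0.30 (SE 0.115) and an interval of 4.28% to 44.8%. All 6 libraries at 12 weeks lay above the 3 day mean and 3 above every 3 day library. The edgeR adjusted p was 0.0508 and the adjusted exact permutation p was 0.0649, so it was not called by either test, where 31.3% of the tested genes were called by edgeR. The edgeR result sat at the threshold: DESeq2 gave an adjusted p of 0.042, while edgeR with surrogate variables gave 0.14 on the log2 scale with an adjusted p of 0.436. Without 12 week replicate 3 the value was 0.19 with an adjusted p of 0.172. Between 12 weeks and 1 day, with means of 27.3 and 27.5 CPM, the log2 fold change was -0.01 (SE 0.114, adjusted p = 0.95 by edgeR), with an interval of -15.7% to 16.7%. In that comparison 33.9% of the tested genes were called.

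Over the 6 comparisons edgeR called Adrb1 in 0, DESeq2 in 1 and limma-voom in 0, and 2 had an edgeR p under 0.05 before adjustment. Asked as 1 question, whether the level differed among the 4 groups at all, the edgeR model over all genes gave F = 3.07 and an adjusted p of 0.0842, where 48.1% of the tested genes were called. Without sham replicate 4 the adjusted p of this test was 0.0339. In the order of levels no neighbours were told apart: exact permutation p-values were 0.842 for 12 weeks against 1 day, 0.463 for 12 weeks against sham and 0.223 for 3 days against sham, all before adjustment. The comparisons with sham share their sham libraries, and those with 3 days share the 3 day libraries, so they are not independent of each other.

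Library numbers in the labels are 77 to 88 at 1 day and 12 weeks, and 57 to 68 at 3 days and in sham. What they mark is not said. Of the comparisons that lie within a run of numbers, 3 days against sham and 12 weeks against 1 day, neither had an edgeR p under 0.05 before adjustment. Both comparisons in which Adrb1 reached such a p, 3 days against 1 day and 12 weeks against 3 days, set libraries of one run against the other. Setting 1 day or 12 weeks against sham also crosses the runs. In these 4 comparisons the group and the run cannot be told apart.

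Depth was 15002476 to 70340174 counts per library. It was 41326217 to 62308617 at 1 day, 16756399 to 48966088 at 3 days and 15002476 to 44709028 at 12 weeks, against 27097306 to 70340174 in sham. The raw Adrb1 count followed the depth, at 1116 to 1860 in the 1 day libraries, 358 to 974 at 3 days and 386 to 1219 at 12 weeks, against 580 to 1680 in sham. The shallowest 3 day library, replicate 5 with 358 counts, had 22.4 CPM with an exact 95% Poisson interval of 20.1 to 24.8 CPM. The deepest 1 day library, also replicate 5, had 29.3 CPM with an interval of 28.0 to 30.6 CPM. These intervals cover counting error only. Even numbers made up 58.1 to 61.1% of all gene counts between 1 and 200 in the libraries, so counts may not all be independent reads, and the intervals may be too narrow. Within groups, the deviation of Adrb1 from its group mean had r = -0.0352 with the deviation of log2 depth over the 24 libraries, given as a description. With all libraries thinned in 1 draw to the lowest total, the log2 fold changes were 0.14 at 1 day, -0.19 at 3 days and 0.18 at 12 weeks, each against sham. That draw kept 441 Adrb1 counts in 1 day replicate 6 and 381 in 1 day replicate 5. By library total the full libraries had 24.5 and 29.9 CPM, the opposite order. The kept counts did not follow the levels in this pair, so the draw cannot be taken as an even sample. The thinned values, and calls made on them, therefore cannot show the part of depth.

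**Figure D3:**
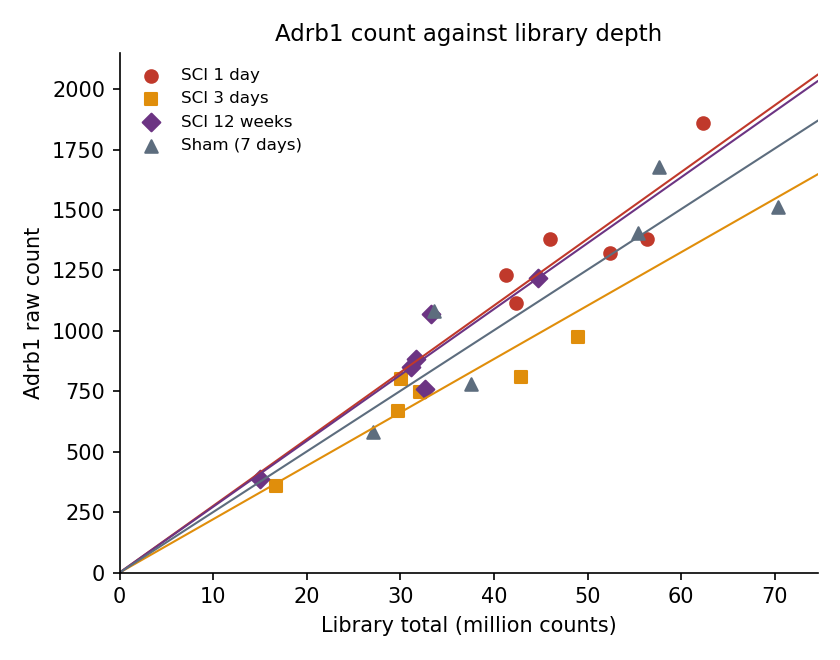
Raw Adrb1 count (vertical axis) against the library total (horizontal axis), 1 point per library. Each line through 0 has the slope of its group's mean of count over total. The 3 day line is the lowest, and the sham points lie on both sides of every line.

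Libraries that correlated least with their own group over all tested genes were 12 week replicates 1 and 3 and 3 day replicate 5, with median r of 0.967 to 0.977 where the others had 0.980 to 0.988. Without these 3, Adrb1 had log2 fold changes of 0.12 at 1 day, -0.19 at 3 days and 0.02 at 12 weeks against sham, with edgeR adjusted p-values of 0.38, 0.238 and 0.919. Whatever sets these libraries apart was not tested for its part in the Adrb1 level.

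**Figure D4:**
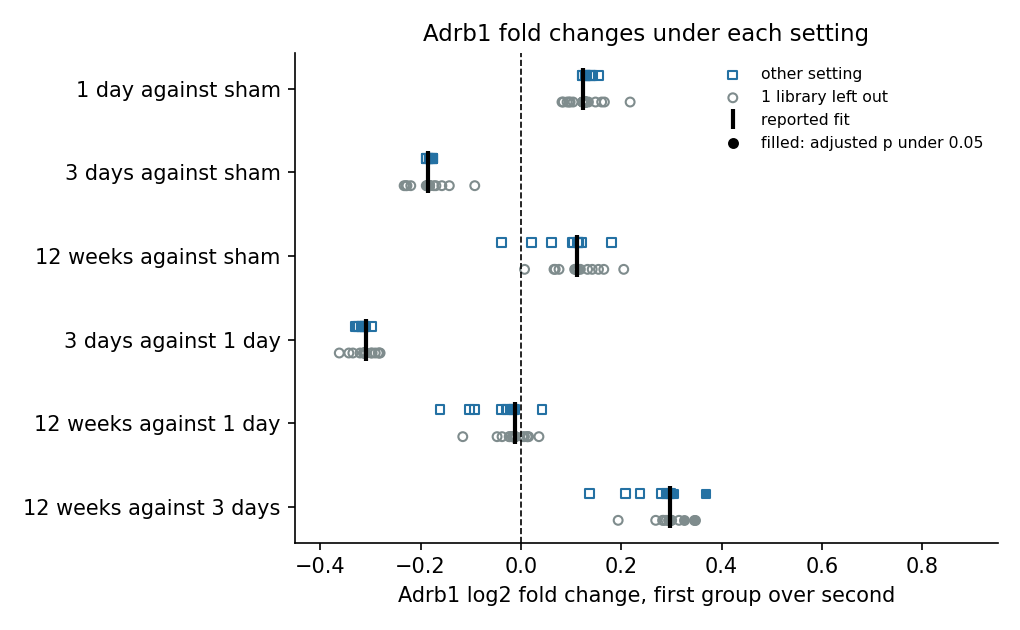
Adrb1 log2 fold change (horizontal axis) in each comparison under each setting, with the reported value as a black bar, fits with 1 library left out as circles and other settings as squares. Filled symbols have an adjusted p under 0.05 and occur only for 12 weeks against 3 days.

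The genes whose level moved most like Adrb1 were sought over all other 15064 tested genes, by Pearson's r of log2 CPM across the 24 libraries. Over those genes r lay between -0.42 at the 5th and 0.42 at the 95th percentile. The most alike was ENSRNOG00000018645, with r = 0.70 and 0.59 after each group's mean was removed. It averaged 194.0 ± 17.0 CPM at 1 day, 149.3 ± 12.5 CPM at 3 days and 200.2 ± 22.1 CPM at 12 weeks, against 188.4 ± 6.75 CPM in sham (SD, n = 6 each). Unlike Adrb1 it was called lower than sham at 3 days, at -0.34 on the log2 scale (adjusted p = 0.00166 by edgeR). The next was ENSRNOG00000017219, with r = 0.70 and 0.72 after removal of the group means, whose own group means lay between 20.1 and 21.7 CPM. At the other end were ENSRNOG00000003068 with r = -0.73 and ENSRNOG00000012302 with r = -0.71, or -0.69 and -0.76 after removal of the group means. The level of ENSRNOG00000003068 was low, with group means between 1.76 and 2.49 CPM. ENSRNOG00000012302 averaged 31.3 ± 4.31 CPM at 1 day, 34.6 ± 5.74 CPM at 3 days and 26.2 ± 8.18 CPM at 12 weeks, against 26.9 ± 5.46 CPM in sham, and was not called against sham at any time. These are the extremes of many correlations, the points share groups, depth and scaling, and no p is given. The sources used here give these IDs no name.

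Other genes of the pathway, from the G proteins, cyclases, kinases that switch the receptor off and phosphodiesterases to the targets of protein kinase A, were listed by symbol. So were markers of myocytes, fibroblasts, endothelium, leukocytes and nerve. None could be matched to an ID, so neither the lists nor the labelled tissue were examined by their genes here.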

How the data were processed

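The authors deposited raw counts per gene in 1 table of protein-coding genes over 24 libraries. Per the labels' protocols, total RNA was depleted of ribosomal RNA and made into strand-specific libraries read as paired ends. The tools named in the submitters' processing notes are STAR 2.7.11a, featureCounts 2.0.6 and FastQC 0.12.1, with build mRatBN7.2. The annotation release, strand setting and treatment of multiply mapped reads were not given in those notes or the labels, so reads shared with another gene cannot be traced. Of 26166 lines, 781 IDs stood on more than 1 with identical counts, and each of 23098 IDs was used once.

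The counts were fitted with edgeR 4.0.16 in R 4.3.3 (filterByExpr by group, TMM, 1 term per group, 20 residual degrees of freedom). The fit covered all 24 libraries and 15065 genes, with Benjamini-Hochberg adjustment across all of them. A standard error is the size of the fold change divided by the root of its F. Log2 CPM used a prior count of 2. Replicates within groups differed far beyond sampling noise (chi-square per degree of freedom 11.1 to 93.8 over 60 pairs). Alternatives used DESeq2 1.42.0, limma 3.58.1 and sva 3.50.0. The steps were tested on simulated data. The gene, lists and tests were chosen with earlier results of these data known. By a written rule the text names Adrb1 and, without symbols, the 2 most and 2 least alike IDs.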

Additional observations from a re-analysis of the deposited data

Results flagged for a closer look

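Within the 12 week group, replicate 3 stood apart with 36.7 CPM, above the next library at 27.8 CPM. The gap was 0.6254 of the group's range, just over the 95% critical value of Dixon's test for 6 samples, and chance gives such a gap in about 1 group in 20. On the log2 scale the gap was 0.566 of the range and in CPM by library total 0.494, both under that value. The same library had the lowest median correlation with its own group, 0.967, and the lowest TMM factor of all libraries, 0.879; their part in its Adrb1 level was not tested.

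Between 2 times after injury the level differed by direct test, with a difference in log2 CPM of -0.31 for 3 days against 1 day (exact permutation p = 0.00649, adjusted p = 0.039 over 6 comparisons). It was lower in 6 of 6 libraries at 3 days than the 1 day mean. The difference failed the adjustment over all genes in edgeR (adjusted p = 0.141), and the time cannot be told apart from the run of library numbers.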

How the results depend on the processing

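For Adrb1 against sham, none of the 35 settings tried at each time ended in a call. The direction held in all of them at 1 day and at 3 days, and at 12 weeks in all but the fit with surrogate variables, which gave -0.039 (adjusted p = 0.864). The 12 week value was 0.06 with limma-voom and 0.0074 without 12 week replicate 3. For 3 days against 1 day no edgeR, DESeq2 or limma setting gave a call, with adjusted p-values of 0.0559 to 0.258. The difference in log2 CPM of that pair was -0.31 without the 3 least correlated libraries (adjusted exact permutation p = 0.0779) and -0.36 to -0.28 with 1 library left out. For 12 weeks against 3 days the edgeR fold change became a call with library totals alone (0.31, adjusted p = 0.0348), with DESeq2 (0.30, adjusted p = 0.042) and with thinned libraries (0.37, adjusted p = 0.0189). It was smaller and no call with surrogate variables (0.14, adjusted p = 0.436), with limma-voom (0.24, adjusted p = 0.132) and without the 3 least correlated libraries (0.21, adjusted p = 0.205). With 1 library left out it lay between 0.19 and 0.35 and was called without 3 day replicate 3, 12 week replicate 1 or 2, or sham replicate 4. The log2 CPM difference of that pair was past the threshold with library totals alone (0.30) and thinned (0.36), and lay between 0.19 and 0.33 with 1 library left out. It was then past the threshold without 3 day replicate 3 (adjusted exact permutation p = 0.039) or 12 week replicate 2 (adjusted exact permutation p = 0.026). For 12 weeks against 1 day, a value near 0, the sign turned with thinning (0.04 in the fit, 0.029 in log2 CPM) and with some libraries left out, over -0.12 to 0.0360 in the fit and -0.12 to 0.0235 in log2 CPM. The F over the 4 groups was 2.23 to 4.38 with 1 library left out and 4.23 with thinning, the last a call. The causes of these changes were not tested, except that a left-out library leaves fewer samples and arrangements. Same-numbered replicates deviated with r of -0.178 to 0.151 (36 pairs, 4 over 0.1). Other pairs were untested, so pairing is undecided. With a replicate block, 12 weeks against 3 days (0.29, adjusted p = 0.0354) and the F over the groups (4.10, adjusted p = 0.0468) became calls, and no count of genes called moved by over 1.5 times.

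Against sham, 3615, 2632 and 3334 called genes at 1 day, 3 days and 12 weeks became 2355, 1641 and 2147 when thinned. For 3 days against 1 day, 413 called genes became 253 with library totals alone, 817 with DESeq2, 953 with limma-voom, 259 with those groups alone, 1017 with surrogate variables, 1018 without the 3 least correlated libraries, 188 when thinned, and 170 to 653 with 1 library left out. Thinning, whose results carry no weight, and removal of the 3 libraries were chosen after the data were seen. The least precise level, from 358 counts, has a counting interval of 20.1 to 24.8 CPM.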
